A study of Papaver somniferum with 12 samples.

Results

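Leaves of the opium poppy (Papaver somniferum) cultivars G and T differed in the level of 574 of 30285 tested unigenes (1.9%), of which 358 were higher and 216 lower in G. For 84 unigenes all libraries of G reached 1 RPKM and all of T lay below 0.1 RPKM, and for 20 the reverse was true. Reads were mapped to transcripts of the original cultivar B1, so an absent transcript and one that differs in sequence cannot be told apart. The library of T replicate 2 stood apart from the rest of T, and 863 unigenes differed when it was left out. The widest gap was that of PB.19101.3, at 207 to 415 RPKM in G and at most 0.33 RPKM in T. On the other side, PB.60466.1 stood at 84.7 to 94.1 RPKM in T and at most 0.20 RPKM in G.

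The comparison used the 3 libraries of G and the 3 of T alone, so that the spread came from these 6 of the 12 libraries of the series. Both cultivars came out of directed breeding and were grown in the same experimental plot, and each library was made from total RNA of the top leaf at the filling stage, after the petals had fallen. The study described T as the cultivar whose leaves hold thebaine, and G as the one whose leaves hold noscapine, among the 4 cultivars B2, T, Z and G. The pair also differed in other alkaloids that the study measured in leaves. Morphine, codeine, scoulerine and sanguinarine were higher in G, and papaverine was found in T but not in G. G has pink flowers and grey seed, whereas T has white flowers with purple spots. The samples of a cultivar were collected independently, and whether each was 1 plant or several is not given in the sources used here. A unigene entered the test when 3 or more of the 6 libraries reached 1 RPKM. RPKM are the reads on a transcript per kilobase of its length and per unit of sequencing output (mapped reads). Of 61856 unigenes, 30285 (49.0%) met this rule, and 6351 were listed at 0 in all 6 libraries. The rule was met in exactly 3 libraries by 1447 unigenes and missed with exactly 2 by 1365. At its edge, the third highest value was 1.00 RPKM in 87 unigenes just inside and 0.99 RPKM in 116 just outside.

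Thebaine and noscapine are benzylisoquinoline alkaloids, a family that poppies build from tyrosine by way of norcoclaurine and reticuline. The branch to thebaine leads on to codeine and morphine by demethylation, while noscapine lies on a separate branch that runs through scoulerine and canadine. In opium poppy the genes of the noscapine branch are known to sit together in the genome as a cluster. The unigenes of the deposited table carry identifiers only. Of these, 0 matched a reference table of 91581 opium poppy genes, so no unigene was assigned to either branch. A functional annotation that the study deposited elsewhere was not used here. Marker genes of the leaf could not be looked up for the same reason.

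In identifiers of this kind, the number after PB. usually names a locus and the last number a transcript of that locus. It was asked whether other unigenes with the same number moved with or against a called one. The table offers no such case. Its 61856 unigenes carried 61856 different numbers, and 0 unigenes shared a number with another. Every unigene is thus the only entry of its number, and sums per number or shifts between transcripts of a number could not be measured. Identifiers with successive numbers were compared in place of this. Among 310 called unigenes whose next number was also tested, that neighbour was called in the same direction in 2 cases and in the opposite direction in 2, beside 1.9% called over all tested unigenes.

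The 6 libraries were alike in summed RPKM, which ran from 1009336 to 1053799. Libraries of G correlated with each other at 0.983 to 0.989 (Pearson's r of log2(RPKM + 1), tested unigenes). The value was 0.988 between T replicates 1 and 3, but only 0.976 and 0.977 between T replicate 2 and these. Between cultivars r ran from 0.956 to 0.971, and each library of G had its highest r with T replicate 2. T replicate 2 therefore stood apart from the other libraries of T on the side of G. It was kept, and the counts of calls, the on and off counts and selected unigenes are also given without it. The sequencing output that the study lists per library was lower in each library of T than in each of G, and its part in the results was not tested. These correlations are across unigenes, which are not independent replicates.

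Differences were tested with limma on log2(RPKM + 1), and a unigene was called at a Benjamini-Hochberg adjusted p under 0.05 and a difference of at least 1 in size. Of the tested unigenes, those called higher in G made up 1.18% and those lower in G 0.713%. The median difference was 1.51 among the higher and -1.36 among the lower unigenes, against -0.00064 over all tested unigenes. A difference above 2 was found for 99 higher and 38 lower unigenes, one above 4 for 10 and 5, and one above 5 for 3 and 4. In all 574 the 3 libraries of G lay above or below the 3 of T with no overlap. This was also so for 28.1% of all tested unigenes, most of which differed by less than the threshold, with 4140 higher and 4357 lower in G. A further 1218 unigenes had an adjusted p under 0.05 with a difference below 1. By the adjusted p alone 843 unigenes were higher and 949 lower in G, so that the order of the counts turned without the bound on the difference. Of the 574 calls, 348 were made again in each of the 6 fits that left out 1 library, 237 of them higher and 111 lower in G. Among the 137 calls with a difference above 2 in size, 119 were. The 6 fits share most of their libraries and keep the unigenes that met the filter with all 6. The repeated calls include unigenes that reached 1 RPKM in 1 cultivar only, and they are not separate support.

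Calls came from every level of expression. Below a mean of 5 RPKM over the 6 libraries, 226 unigenes were higher and 106 lower in G, or 2.18% of those tested there. Between 5 and 20 RPKM the numbers were 73 and 80 (1.69%), with fewer higher than lower in G. At 20 RPKM or more they were 59 and 30 (1.48%). Called unigenes had a median of 5.62 RPKM in G when higher there and of 8.41 RPKM in T when higher there. The filter let some unigenes through on 1 cultivar alone. There were 350 that reached 1 RPKM with all of G and none of T, of which 181 were called, and 256 of the reverse kind, of which 71 were called. Since such unigenes had to differ, these shares describe the filter and not the cultivars. The 181 and 71 remain among the 574 calls, and an adjusted p of such a unigene is not separate support for its difference.

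**Figure D1:**
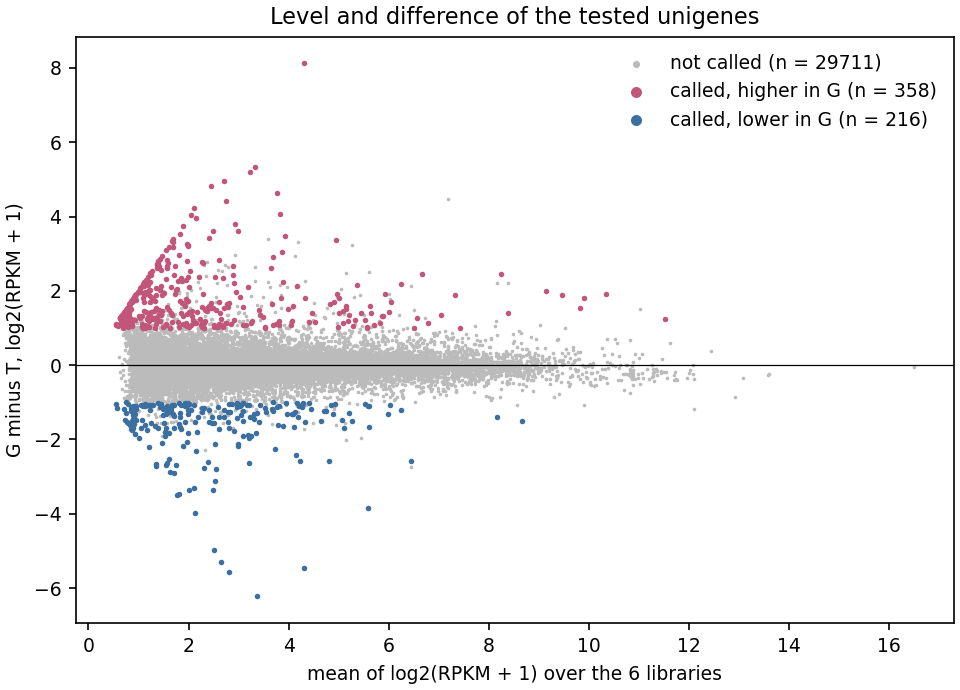
Each point is 1 of the 30285 tested unigenes, with the mean of log2(RPKM + 1) over the 6 libraries on the horizontal axis and the difference of G from T on the vertical axis. The 358 unigenes called higher in G and the 216 called lower are coloured, and the topmost point is PB.19101.3.

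Single libraries moved the counts, and T replicate 2 moved them most. Without it, 863 unigenes were called, 553 higher and 310 lower in G. The 5 other fits that left out a library gave 442 to 603. For each library it was measured where it lay at the unigenes called without it. The tested unigenes stayed those that met the filter with all 6 libraries, so the left-out library had a part in choosing them. The positions and shares below are therefore not those of a library held out entirely. On this scale 0 is the mean of the other libraries of its own cultivar and 1 the mean of the other cultivar. The median position of T replicate 2 was 0.261. It lay nearer G than the rest of T at 301 of 863 unigenes and past the mean of G at 104. For G replicate 1 the median was 0.0913, with 102 of 603 unigenes nearer T. The 4 other libraries had medians from 0 to 0.0142, with 15 to 28 unigenes nearer the other cultivar. T replicate 2 differed from the mean of G by at least 1, in the direction of the call, at 49.7% of the unigenes called without it. The share was 68.3% for G replicate 1 and 83.0% to 88.0% for the 4 others.

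**Figure D2:**
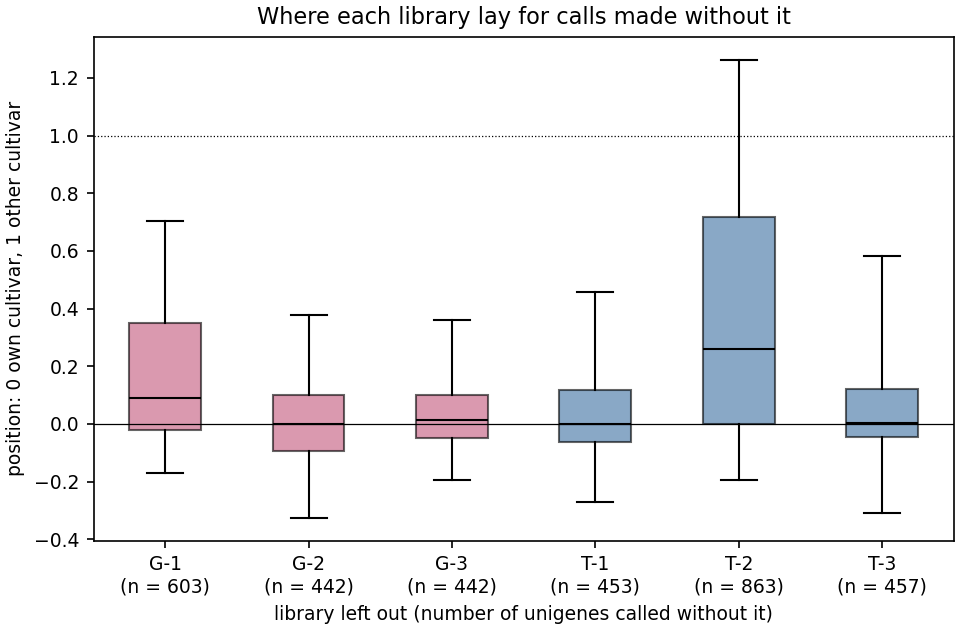
For each library of G and T, the box shows the position of that library at the unigenes called without it. On the log2 scale, 0 is the mean of the other libraries of its cultivar and 1 that of the other cultivar. Boxes span the quartiles with the median as a line, and whiskers reach the 5th and 95th percentiles, with T replicate 2 the most spread towards the other cultivar.

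The largest differences that missed the call show the same library. PB.57812.2, picked after its values were seen as were the next pair, had 687, 658 and 700 RPKM in G replicates 1, 2 and 3. In T it had 3.63 and 7.62 RPKM in replicates 1 and 3 but 734 RPKM in replicate 2. T replicate 2 was thus at the level of G, and the difference of 4.47 (SE 1.73) had an adjusted p of 0.190 in limma's test. Without that library the difference was 6.76 (SE 0.240), a spread made small by leaving out the library of T that stood apart. PB.57924.2 had 34.0 to 44.8 RPKM in G, 0.07 and 0.17 RPKM in T replicates 1 and 3, and 39.3 RPKM in T replicate 2. PB.52477.3 had 49.9 to 62.2 RPKM in G, 0.66 and 1.29 RPKM in T replicates 1 and 3, and 50.03 RPKM in T replicate 2. All 3 unigenes were called without T replicate 2. Of 37 uncalled unigenes with a difference above 2 in size, T replicate 2 lay nearer G at 30, and 31 were called without it. A large difference that misses the call has a wide spread within a cultivar. Calls made without T replicate 2 at these unigenes are thus not separate support. What sets this library apart was not tested.

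The named unigenes higher in G are those with the largest difference among the 113 called unigenes that had a mean of at least 10 RPKM in G. PB.19101.3 had 207, 412 and 415 RPKM in G replicates 1, 2 and 3, and 0.18, 0.33 and 0.05 RPKM in those of T. G replicate 1 was well below the other libraries of G, and all T libraries were close to 0. The difference was 8.12 (SE 0.267), the largest of all tested unigenes. This unigene entered the test through the libraries of G alone. Z was at 0.04 to 0.15 RPKM like T, whereas B2 had 44.6 to 151 RPKM.

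PB.25482.1 had 50.4, 77.5 and 63.1 RPKM in G and 0.29, 1.08 and 0.46 RPKM in T. Its difference was 5.34 (SE 0.216, adjusted p 2.95e-05 in limma's test). Here Z was higher still, at 105 to 130 RPKM, and B2 was at 0.12, 0.34 and 5.29 RPKM, so that the order of Z and B2 was the reverse of that at PB.19101.3.

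PB.327.7 had 51.1, 56.4 and 59.99 RPKM in G, and 0.10, 2.17 and 0.05 RPKM in T. T replicate 2 was the highest of T, yet far below every library of G. The difference of 5.20 (SE 0.400, adjusted p 0.000613 in limma's test) was 5.72 without T replicate 2. Z had at most 0.19 RPKM, and in B2 only replicate 3 was high, at 65.4 RPKM against 0.19 and 0.04 RPKM. The call was lost in the fit on all 4 cultivars, whose spread includes B2.

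PB.53005.1 had 35.3, 111 and 76.1 RPKM in G and 0.88, 1.45 and 3.44 RPKM in T, a difference of 4.63 (SE 0.457, adjusted p 0.00201 in limma's test). PB.54993.1 was uneven within G, with 149, 4.26 and 61.7 RPKM, and was listed at 0 in T replicates 1 and 2 and at 0.61 RPKM in replicate 3. The unigene entered the test through the libraries of G alone. Its difference of 4.97 had an SE of 1.10 and an adjusted p of 0.0475 in limma's test. The call was lost in 5 of the 6 fits that left out 1 library, all but the one without G replicate 2, its lowest library in G. Z and B2 were as uneven at this unigene, from 1.96 to 59.1 RPKM and from 0.14 to 259 RPKM.

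Among the 98 called unigenes that were lower in G with a mean of at least 10 RPKM in T, the largest differences were steadier between replicates. PB.60466.1 had 0.20, 0.20 and 0.19 RPKM in G against 86.2, 84.7 and 94.1 RPKM in T. This gave a difference of -6.22 (SE 0.0786). The unigene entered the test through the libraries of T alone. Z was at 0 to 0.10 RPKM and B2 at 94.0 to 128 RPKM, so G and Z were low where T and B2 were high.

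PB.29770.2 followed the same pattern, with 0, 0 and 0.06 RPKM in G and 46.0, 50.6 and 46.9 RPKM in T. Z did not exceed 0.04 RPKM, and B2 had 29.9 to 41.6 RPKM. The difference was -5.58 (SE 0.0840), and this unigene too entered the test through T alone. PB.61230.1 had 2.32, 1.77 and 1.97 RPKM in G and 151, 118 and 125 RPKM in T, with 1.47 to 2.07 RPKM in Z and 46.1 to 132 RPKM in B2. Unlike the pair before, it was above 1 RPKM in each library of G and Z. Its difference was -5.45 (SE 0.118).

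PB.47445.1 had 45.7, 38.7 and 32.2 RPKM in T, and G was listed at 0 throughout. It was at most 0.03 RPKM in Z, and B2 lay between with 6.78 to 14.5 RPKM. PB.47710.1 had 0, 0 and 0.05 RPKM in G and 31.6, 27.6 and 34.0 RPKM in T. Z did not exceed 0.40 RPKM there, and B2 had 27.2 to 41.9 RPKM. For both, the libraries of a cultivar kept to a narrow range, and the differences were -5.30 (SE 0.131) and -4.97 (SE 0.103). PB.61345.1 had 0, 0.32 and 0 RPKM in G and 14.3, 20.4 and 14.8 RPKM in T. In Z it was at 0.16 RPKM in replicate 1 and at 3.80 RPKM or more in the other libraries, and in B2 it was at most 0.57 RPKM. PB.47445.1, PB.47710.1 and PB.61345.1 also entered the test through the libraries of T alone. All 6 unigenes kept their call in each of the 13 alternative fits. These fits reuse libraries of G and T, so the kept calls are not separate support.

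**Figure D3:**
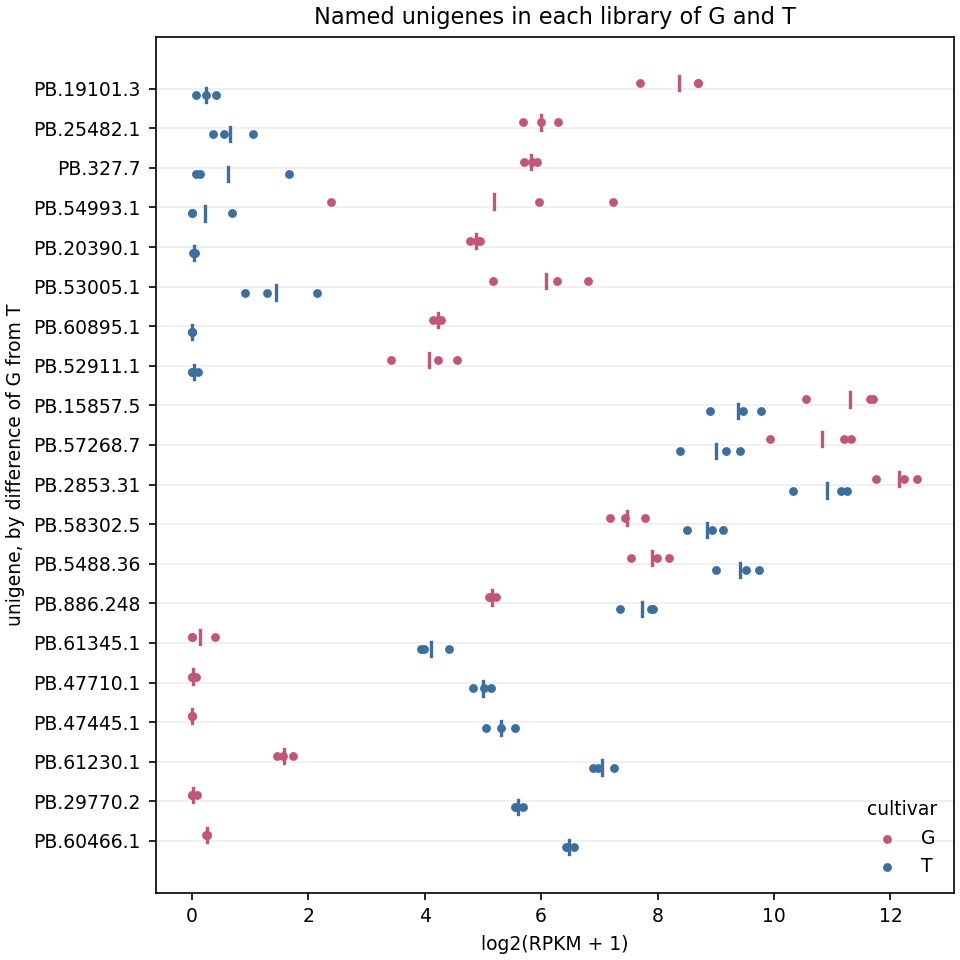
Points give log2(RPKM + 1) in each library of G and T for the 20 named unigenes, with a short bar at the mean of 3 libraries. The 2 cultivars do not overlap at any of them, and the 6 unigenes at the middle of the plot, named for their difference in mean RPKM, have the smallest gaps on this scale.

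Abundant unigenes were also named, by their difference in mean RPKM. With means of 100 RPKM or more in the higher cultivar there were 20 unigenes higher in G and 7 lower. The difference was below 2 for 16 of the 20, with PB.19101.3 among the exceptions. PB.2853.31 was the most abundant, at 3448, 4832 and 5647 RPKM in G and 2454, 2272 and 1290 RPKM in T. T replicate 1 came within 994 RPKM of G replicate 1, and the difference of 1.24 (SE 0.279) had an adjusted p of 0.0499 in limma's test. The difference was 0.95 to 1.44 in the 6 fits that left out 1 library, none of which made the call, and 12 of all 13 alternative fits lost it. PB.15857.5 had 1493, 3333 and 3195 RPKM in G and 705, 872 and 475 RPKM in T. The difference was 1.92 (SE 0.347, adjusted p 0.0249 in limma's test), and stayed at 1.68 to 2.30 when 1 library was left out, though 4 of these 6 fits lost the call. PB.57268.7 had 977, 2553 and 2344 RPKM in G and 684, 579 and 335 RPKM in T, with a difference of 1.82 (SE 0.411, adjusted p 0.0499 in limma's test). It stayed at 1.52 to 2.26 when 1 library was left out, but the call was lost in 5 of these 6 fits and in 11 of all 13 alternatives. In the last pair G replicate 1 lay well below the other libraries of G. G replicate 1 was also the lowest library of G at 16 of the 20 abundant higher unigenes, and T replicate 3 the lowest of T at 13. Only 4 of the 20 were called in all 6 fits that left out 1 library.

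Of the 7 abundant unigenes lower in G, 5 were called in all 6 of these fits, and 3 differed by more than 2 in size. PB.5488.36 had 252, 186 and 294 RPKM in G and 859, 732 and 512 RPKM in T, a difference of -1.51 (SE 0.228, adjusted p 0.0129 in limma's test) whose call was lost in the fit on all 4 cultivars. PB.58302.5 had 220, 144 and 172 RPKM in G and 490, 360 and 556 RPKM in T. Its difference was -1.38 (SE 0.20, adjusted p 0.011 in limma's test), and the call was lost without G replicate 3 and in the fit on all 4 cultivars. PB.886.248 kept its call in all 13 alternative fits, with 34.2, 33.5 and 36.3 RPKM in G and 236, 163 and 241 RPKM in T. For it the difference was -2.57 (SE 0.151, adjusted p 0.000158 in limma's test), Z lay near G with 38.0 to 79.9 RPKM, and B2 had 166 to 434 RPKM.

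It was then asked which unigenes were read in 1 of the cultivars and hardly at all in the other. A unigene counted as on at 1 RPKM or more in all 3 libraries and as off below 0.1 RPKM in all 3. There were 84 unigenes on in G and off in T, and 20 on in T and off in G. All 104 were among the calls, which made up 1.9% of the tested unigenes, as the bounds on their values all but require. In the off cultivar 48 of the 84 and 8 of the 20 were listed at 0 in all 3 libraries. Most were at low levels where they were on. The mean ran from 1.13 to 28.4 RPKM with a median of 2.62 in G, and from 1.11 to 47.9 RPKM with a median of 2.37 in T. Only 5 in each direction reached 10 RPKM. Without T replicate 2 the numbers were 139 and 29. The reads were mapped to transcripts of the original cultivar B1, so that a transcript missing from the RNA and one that differs in sequence from B1 cannot be told apart.

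The highest unigene on in G was PB.20390.1, with 26.3, 30.1 and 28.8 RPKM in G and 0.03, 0.02 and 0.04 RPKM in T. It differed by 4.83 (SE 0.0888), and the libraries of each cultivar were close together. It had entered the test through the libraries of G alone. Z had 55.9 to 60.2 RPKM and B2 37.0 to 55.9 RPKM, so that T alone was low. PB.60895.1 had 16.7, 18.5 and 17.8 RPKM in G and was listed at 0 in every library of T and Z. B2 replicate 3 had 43.7 RPKM, while B2 replicates 1 and 2 were listed at 0. PB.52911.1 had 9.70, 22.6 and 17.8 RPKM in G, 0 to 0.07 RPKM in T, and 12.2 to 13.3 RPKM in Z. B2 replicates 1 and 2 had 88.1 and 117 RPKM, while replicate 3 had 0.39 RPKM. Both PB.60895.1 and PB.52911.1 had also entered the test through the libraries of G alone, and both lost their call in the fit on all 4 cultivars. The highest unigenes on in T were PB.29770.2, PB.47445.1 and PB.47710.1, given above.

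Nearly all of these unigenes were present elsewhere in the series. Of the 84 on in G, 83 had at least 1 RPKM in at least 1 library of Z or B2, and of the 20 on in T, 17 had. In Z, 53 of the 84 were off, 16 were on and 15 were mixed or between the bounds. In B2, by contrast, 53 were on and 1 was off in all 3 libraries, and 20 of the remaining 30 were on in B2 replicate 3 alone with less than 0.1 RPKM in replicates 1 and 2. Hence 32 unigenes were on in G and B2 and off in T and Z, and 11 were on in all but T. Of the 20 on in T, 12 were off and 2 on in Z, while 9 were on and 1 off in B2, with 6 on in B2 replicate 3 alone. Below 0.1 RPKM in all 9 other libraries were 1 unigene on in G, PB.54053.1, and 1 on in T, PB.53971.1, both named after their values were seen. PB.54053.1 had 2.42, 2.36 and 2.07 RPKM in G and was listed at 0 in all the others. PB.53971.1 had 1.48, 2.06 and 1.84 RPKM in T and at most 0.05 RPKM elsewhere.

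**Figure D4:**
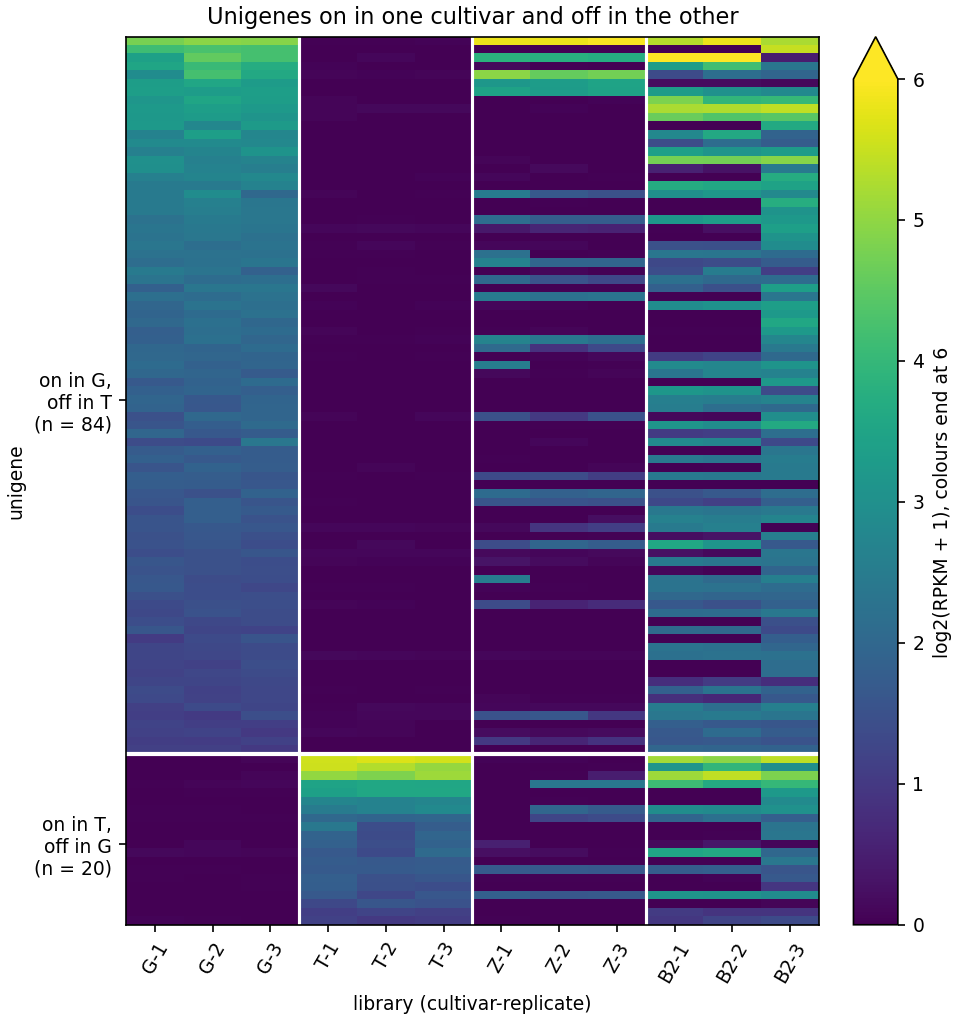
Rows are the 84 unigenes on in G and off in T, then the 20 on in T and off in G, each sorted by mean RPKM, and columns are the 12 libraries, with colour for log2(RPKM + 1). Of the upper rows 53 are dark in all libraries of Z and 53 are on in all libraries of B2, and B2 replicate 3 often differs from the other libraries of B2.

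The means of Z and of B2, whose libraries took no part in the comparison, were placed on the scale from T to G at all 574 called unigenes. At 20 of the 84 unigenes on in G and off in T, B2 replicate 3 alone of B2 was on. The mean of B2 can thus lie apart from each of its libraries. At the 358 unigenes higher in G, the mean of Z was nearer G at 161 (45.0%) and that of B2 at 238 (66.5%). At the 216 lower unigenes Z was nearer G at 159 (73.6%) and B2 at 118 (54.6%). Over all tested unigenes the shares were 55.2% for Z and 54.1% for B2. With 0 for T and 1 for G, the median position of Z was 0.366 at the higher and 0.778 at the lower unigenes. B2 had medians of 0.809 and 0.585. Over all tested unigenes the medians were 0.65 for Z and 0.695 for B2. At most of these G and T differed by less than the threshold, so their positions and shares are a poor baseline. B2 lay past the mean of G at 41.3% of the higher unigenes, near its 43.3% over all tested unigenes. On both sets Z was thus more often nearer the cultivar with the lower level. Between G and T, 181 of the higher and 71 of the lower unigenes reached 1 RPKM in the higher cultivar alone. There a level near 0 RPKM in Z or B2 always counts as near the lower cultivar.

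The same was seen at the called unigenes where G and T were far apart, which are part of the same sets and not a separate observation. At the 99 higher unigenes with a difference above 2, Z was next to T (a position under 0.25) at 51, and next to G (over 0.75) at 26. At the 38 lower ones it was next to T at 3 and next to G at 25. B2 was next to T at 12 and next to G at 50 of the 99 higher unigenes, and at 14 and 13 of the 38 lower ones. In combination, 153 of the 358 higher unigenes had Z nearer T and B2 nearer G, 76 the opposite, 85 had both nearer G and 44 both nearer T. Of the 216 lower unigenes, 90 had both nearer G, 69 Z nearer G and B2 nearer T, 28 the opposite and 29 both nearer T. No test was applied to these counts, which rest on the means of Z and B2 and not on their single libraries.

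**Figure D5:**
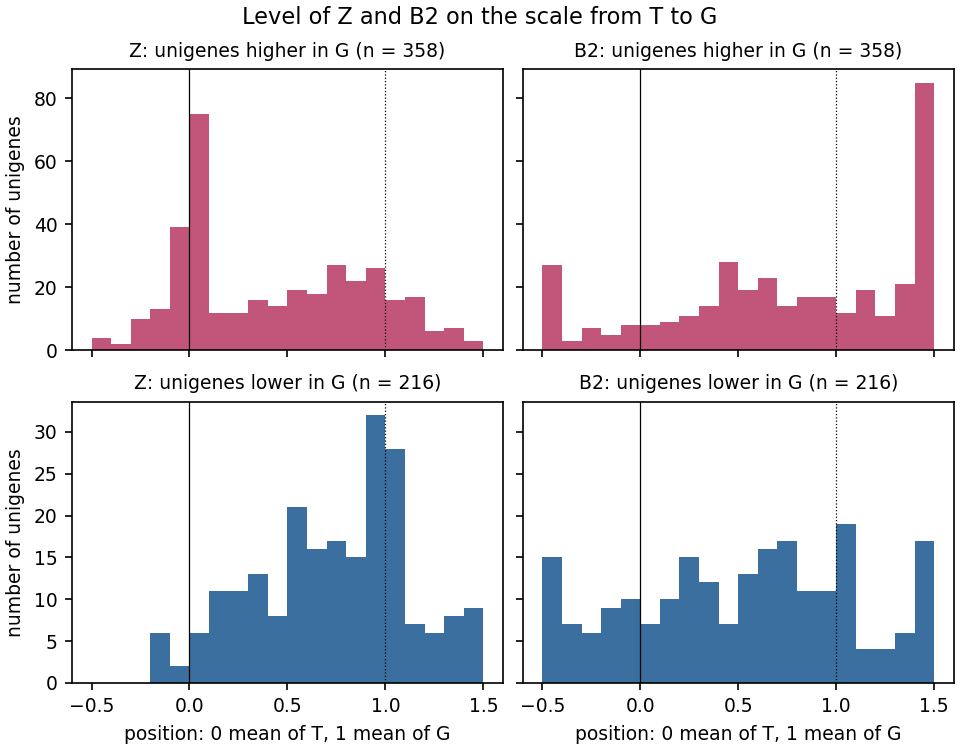
Histograms place the mean of Z (left) and of B2 (right) on the log2 scale from mean T (0) to mean G (1). They cover the 358 unigenes higher in G (top) and the 216 lower (bottom). Values outside the axis are placed in the end bins, and Z has its peak at T in the upper panel and at G in the lower.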

How the data were processed

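RNA was sequenced from leaves of 4 cultivars with 3 libraries each, of which the 6 of G and T were compared. The authors mapped clean paired-end Illumina reads with HISAT2 2.05 to unigenes built from PacBio reads of cultivar B1, with no genome, and estimated levels with RSEM. The deposited values are RPKM, rounded to 2 decimals by the authors, although their methods text names the fragment-based unit. RSEM divides reads among similar transcripts, so values of near-identical unigenes are uncertain. The table holds no read counts, so the number of reads behind a value is unknown, and a 0 is reported as listed at 0. Every column belonged to 1 library, and processing notes of the submitters also list DESeq.

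Unigenes that reached 1 RPKM in 3 or more of the 6 libraries were fitted on log2(RPKM + 1), with a pseudocount of 1 that understates changes at low levels, using limma 3.58.1 (R 4.3.3; lmFit, eBayes with trend, two-sided). P-values were adjusted by Benjamini and Hochberg over all 30285 unigenes. On simulated data with known answers, 91 of 100 differences of 1.5 and 99 of 100 differences of 3 were recovered, and 3 unchanged unigenes were called. The changed unigenes had a mean log2(RPKM + 1) above 3 and no library was displaced. Recovery at lower levels, or with a library like T replicate 2, was therefore not measured. The simulated noise was normal on the log2 scale around 1 mean per unigene. The 3 unchanged unigenes called are thus not a rate of false calls in the real data. Tables and figures were made with Python 3.11.15, pandas 2.3.3 and matplotlib 3.10.9.

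Named unigenes are the 6 higher and 6 lower with the largest difference, a mean of at least 10 RPKM in the higher cultivar and no overlap, the 3 higher and 3 lower with the largest difference of mean RPKM, and the 3 highest on in each cultivar and off in the other. The comparison, the rules and the lists were chosen with earlier results of these data known. Tests planned on sums per PB number, on unigenes moving unlike the rest of their number and on opposite calls within a number, and the naming rules that rest on them, could not be run, since no number occurs more than once. Deposited columns hold no comparison of the authors. Alternatives were another pseudocount, filter, scaling, variance prior, set of libraries, threshold and block, and each replicate left out in turn.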

Additional observations from a re-analysis of the deposited data

How the results depend on the processing

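Counts moved by over 1.5 times under these alternatives. The adjusted p alone gave 1792 unigenes, 843 higher and 949 lower in G, by its construction. A stricter filter, at the lower bound of the study's next-to-highest RPKM class, tests fewer unigenes and gave 354, with 212 and 142. A fit on all 4 cultivars, which share 1 spread, gave 329, with 222 and 107. A pseudocount of 0.1 gave 349 lower, and the cause was not tested. Leaving out 1 library gave 442 to 863 unigenes, 276 to 553 of them higher in G, and 111 to 168 unigenes on in one cultivar and off in the other, 88 to 139 of them on in G. Each of these highest values is the one without T replicate 2. With off set below 0.5 RPKM there were 204, 149 on in G and 55 on in T, and with on set at the bound of that class 29, with 22 and 7, both by construction.

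Labels share replicate numbers, but deviations from the cultivar mean correlated at 0.116, 0.154 and -0.0334 for numbers 1, 2 and 3, so the numbers were not taken as pairs. Number 3 did not correlate best with itself. A fit with the replicate block gave 595 unigenes, 530 of them shared. In all, 49 alternative counts, those with the block included, stayed within 1.5 times. Of 260 values of the 20 named unigenes 0 reversed and 42 lost the call, at 9 unigenes. Alternatives for results on PB numbers were not run, since no number is shared. The table holds no read counts, so no limit of detection is given for values near 0 RPKM.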

Other observations

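Some unigenes were high in part of the libraries of a cultivar only. Seen from 10 RPKM in at least 1 library and less than 0.1 RPKM in another, there were 17 such unigenes in T and 13 in G, of which 16 and 2 met the filter of the test. None of the 16 and 2 was called between the cultivars, and the rest were not tested. All 17 of T set T replicate 2 against both other libraries. In 10 it was the one high library, with the others below 0.2 RPKM, and in 7 it was the one low library, with the others above 5 RPKM. PB.35992.1, named like the next ones after its values were seen, had 64.9 and 67.9 RPKM in T replicates 1 and 3 and was listed at 0 in replicate 2. PB.1747.5 had 17.8 RPKM in T replicate 2 against 0.03 and 0.02 RPKM. At the lower bound of 1 RPKM, T replicate 2 alone held 85 unigenes and alone lacked 71. T replicate 1 alone held 18 and alone lacked 18, and T replicate 3 alone held 16 and alone lacked 25. Of the 85, 45 were on in all 3 libraries of G and 2 were off there. Of the 71, G was on at 30 and off at 6.

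G replicate 3 alone held 75 unigenes, against 14 and 12 for G replicates 1 and 2, and 68 of the 75 were listed at 0 in both of these. They had 1.08 to 24.4 RPKM in G replicate 3, with a median of 2.69. Here the other cultivar was not matched, since 71 of the 75 were off in all libraries of T. At least 1 library of Z had 1 RPKM or more at 33 of them, B2 replicate 3 at 1, and 7 were below 0.1 RPKM in all libraries of T, Z and B2. The filter admitted 1 of the 75 to the test.

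The last number of the identifier was 1 in 53.4% of the tested unigenes, in 66.2% of those higher in G and in 60.2% of those lower in G. No test was applied to these shares.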
